A study of Mus musculus with 6 samples.

Results

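The 9 complement genes described here were taken by symbol from a table of 23995 genes measured by RNA sequencing of mouse hearts. They are *C1ra*, *C2*, *C4b*, *C3*, *Cfb*, *C6*, *C7*, *Serping1* and *C3ar1*, and all 9 were listed. The table holds 3 libraries labelled LTBP4-CKO, from mice with an inducible deletion of *Ltbp4* restricted to cardiomyocytes, and 3 labelled WT. All 6 came from mice that had transverse aortic constriction (TAC), a surgical narrowing of the aorta that loads the left ventricle with pressure, at 10 to 12 weeks of age. The WT libraries carry flox in their names, and the labels give neither their alleles nor the Cre driver, the inducing agent or the time between surgery and sampling. No unoperated heart was analysed here, so every difference below is between genotypes after TAC.

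Complement is a protease cascade that marks surfaces for clearance and recruits leukocytes. In the classical pathway C1r, bound to C1q, activates C1s, which cleaves C4 and C2, while in the alternative pathway factor B is cleaved by factor D, and both routes form convertases that cleave C3. Cleavage of C3 releases the peptide C3a, which acts on the receptor encoded by *C3ar1*, and the later components assemble a membrane pore. The liver makes most circulating complement, and stromal and myeloid cells also transcribe many of these genes locally.

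The libraries did not all stand as independent samples. LTBP4-CKO libraries 2 and 3, and WT libraries 1 and 3, differed by 1.28 to 1.83 times the variance that counting alone gives, whereas the other 13 pairs reached at least 85.0 times. Each close pair was averaged and counted as 1 sample, which left 2 LTBP4-CKO and 2 WT samples, and no label says that they came from separate animals. Recovered depth was 5.91e+06 to 1.40e+07 fragments in LTBP4-CKO libraries and 3.66e+06 to 5.85e+06 fragments in WT libraries. LTBP4-CKO library 1 stood apart from its group, and so did WT library 2. Across the genes tested, log2 values of WT library 2 correlated at 0.944 with LTBP4-CKO libraries 2 and 3. With WT libraries 1 and 3 they correlated at 0.925 and 0.926 (Pearson). LTBP4-CKO library 1 correlated at 0.929 with WT library 2 and at 0.899 with LTBP4-CKO libraries 2 and 3. By this measure the samples did not group by genotype. The summed FPKM of 5 atrial cardiomyocyte markers was 13894, 268 and 260 in LTBP4-CKO libraries 1 to 3 and 37230, 1537 and 37335 in WT libraries 1 to 3. Averaged on a log2 scale over the 4 tested markers, deviations from the mean of the samples were −1.69, −1.96 and −2.33 in LTBP4-CKO libraries 1 to 3. They were 5.46, −1.64 and 5.45 in WT libraries 1 to 3. By the log2 average of atrial markers LTBP4-CKO library 1 lay near LTBP4-CKO libraries 2 and 3 and WT library 2, unlike by the sum. The FPKM of *Ltbp4* was 139, 199 and 195 in LTBP4-CKO libraries 1 to 3 and 368, 248 and 357 in WT libraries 1 to 3, a difference in the labelled direction that did not pass the test (log2 fold change −0.86, limma, Benjamini-Hochberg adjusted p = 0.999).

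After TAC, all 8 members that could be tested had lower estimates in LTBP4-CKO hearts than in WT hearts, beside 45.8% of all genes tested, and none passed the test across all genes. The mean FPKM of LTBP4-CKO samples differed from that of WT samples by −80.4% for *C4b*, the largest difference, by −76.7% for *C2* and by −75.4% for *C7*. For *C4b*, *C2*, *C3*, *Cfb* and *C7*, every LTBP4-CKO library lay below every WT library, as was so for 11.5% of all genes tested. *C1ra*, *Serping1* and *C3ar1* overlapped between genotypes, with LTBP4-CKO library 1 above WT library 2. *C6* was too low to test.

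The 8 tested members had log2 fold changes (LTBP4-CKO minus WT, on log2(FPKM + 1)) from −2.35 to −0.93, with a median of −1.42, beside a median of 0.04 over the 12485 genes tested. FPKM is a fragment count divided by transcript length and by library size. Of the 8, 0 passed at an adjusted p of 0.05 (limma, Benjamini-Hochberg adjusted p = 0.999 for each), and over all genes 0% passed as lower and 0.00801% as higher. At an unadjusted p under 0.05 in the same limma fit, 5 of the 8 were lower, beside 2.29% of all genes tested, and 0 were higher, beside 0.705%. With the 6 libraries taken as separate samples the limma count was 8. That setting counts the libraries of a close pair as independent, although they differ by little more than counting. The share over all genes was not computed for it, so the 8 cannot be set beside one. By sample, 5 of 8 did not overlap and were lower, beside 14.4% of all genes, and 0 were higher, beside 14%. The genes were chosen with earlier results of these data known, so these counts describe the members and do not test them as a set. Exact permutation of the library labels, two-sided, returned p = 0.1 for each of these 5 genes, the lowest value 3 against 3 can reach. Over the 4 samples the exact permutation p was 0.333, the lowest that 2 against 2 can reach. For *C1ra*, *C6*, *Serping1* and *C3ar1* the exact permutation p was 0.2 over libraries and 0.667 over samples. In bulk heart RNA, fewer cells of a type and less RNA per cell cannot be told apart.

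**Figure D1:**
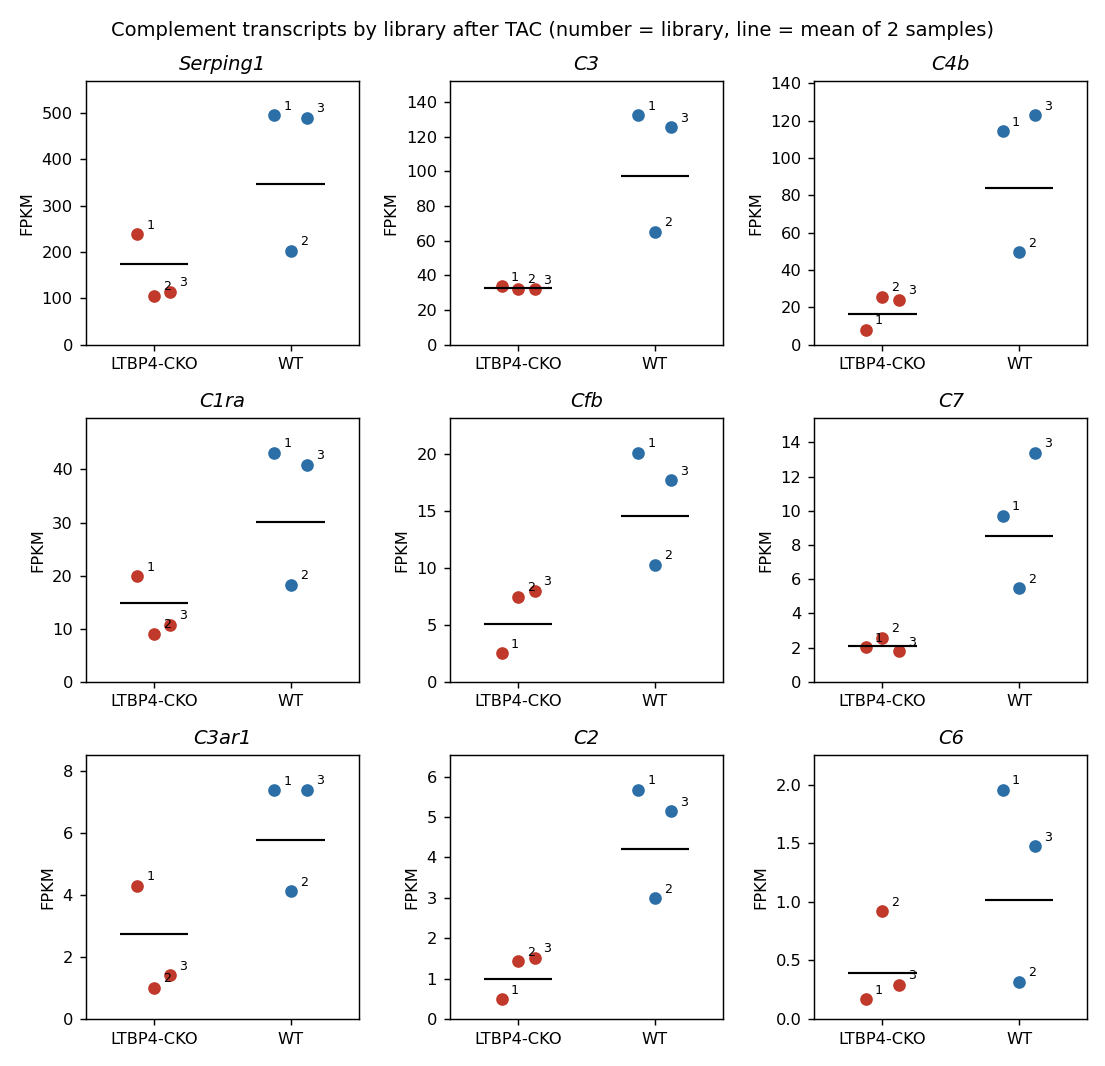
FPKM of the 9 complement genes in each library, LTBP4-CKO in red and WT in blue, with the library number beside each point and a line at the mean of the 2 samples of a genotype. The 3 *C3* values of LTBP4-CKO libraries lie between 31.8 and 33.7 FPKM and all 3 WT values at 65.2 FPKM or above, whereas for *Serping1* LTBP4-CKO library 1, at 238 FPKM, lies above WT library 2, at 203 FPKM.

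*C3*, the component on which all activation routes converge, was at 33.7, 32.2 and 31.8 FPKM in LTBP4-CKO libraries 1 to 3 and at 132, 65.2 and 125 FPKM in WT libraries 1 to 3. The LTBP4-CKO libraries were nearly level with each other, and WT library 2 lay between them and the other WT libraries. Over samples this was 32.9 ± 1.23 FPKM in LTBP4-CKO and 97.0 ± 45.0 FPKM in WT (SD, n = 2 each), a log2 fold change of −1.45 (SE 0.46, 95% interval −2.55 to −0.36). *C3* is a minus-strand gene of chromosome 17 (57203973 to 57228136 in mm10) and, like the other 8, protein coding in GENCODE M21.

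*C3ar1* encodes the G protein-coupled receptor for the C3a peptide and is a gene of myeloid cells. It was at 4.30, 1.01 and 1.42 FPKM in LTBP4-CKO libraries 1 to 3 and at 7.39, 4.14 and 7.41 FPKM in WT libraries 1 to 3. LTBP4-CKO library 1 lay just above WT library 2, so the genotypes overlapped, and the estimate on the log2 scale was −0.94 (SE 0.55, 95% interval −2.25 to 0.38). The values rested on about 241, 24.0 and 38.0 fragments in LTBP4-CKO libraries and 167, 61.1 and 174 in WT libraries. *C3ar1* is a minus-strand gene of chromosome 6 (122847140 to 122856157 in mm10), 1.66 Mb from *C1ra*.

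The promoters of *C3* and *C3ar1* are shown because the 2 genes encode the source of the C3a peptide and its receptor and both had lower estimates. Each runs from 250 bases before to 50 bases after the annotated start, 5′ to 3′ on the gene's strand (RefSeq, GRCm38.p6, chr17:57228087-57228386 and chr6:122856108-122856407, both minus strand), and 5 of the 9 members were found in that table. Capitals mark matches, on either strand, to the motifs searched.
C3: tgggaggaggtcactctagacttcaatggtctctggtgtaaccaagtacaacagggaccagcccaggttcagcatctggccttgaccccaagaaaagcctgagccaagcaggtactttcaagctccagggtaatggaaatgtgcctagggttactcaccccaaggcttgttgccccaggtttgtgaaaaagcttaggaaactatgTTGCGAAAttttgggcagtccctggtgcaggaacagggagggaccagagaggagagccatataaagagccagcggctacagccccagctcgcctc
C3ar1: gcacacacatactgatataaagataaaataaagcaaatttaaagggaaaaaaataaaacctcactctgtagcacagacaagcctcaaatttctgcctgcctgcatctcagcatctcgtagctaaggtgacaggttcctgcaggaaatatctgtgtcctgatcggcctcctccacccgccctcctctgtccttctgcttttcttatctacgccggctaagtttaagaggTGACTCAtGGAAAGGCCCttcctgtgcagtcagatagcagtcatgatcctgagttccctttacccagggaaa
The motifs were TTGCNNAA (C/EBP type), TTCNNNGAA (STAT type), TGANTCA (AP-1 type), and 10-letter forms of the NF-kB and IRF motifs. They were present in 10.8%, 8.3%, 7.81%, 1.63% and 3.44% of the 32851 mouse promoters of the same length. The *C3* window held 1 C/EBP-type match, starting at −45 from the start site, and no other. The *C3ar1* window held 1 AP-1-type match at −22 and 1 NF-kB-type match at −14, which do not overlap. A match is a run of letters and not evidence of binding.

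The classical pathway members were *C1ra*, *C4b* and *C2*. *C1ra*, which encodes the protease C1r, was at 19.9, 9.03 and 10.8 FPKM in LTBP4-CKO libraries 1 to 3 and at 43.2, 18.3 and 40.9 FPKM in WT libraries 1 to 3. LTBP4-CKO library 1 lay above WT library 2, and the estimate on the log2 scale was −0.93 (SE 0.53, 95% interval −2.21 to 0.34). *C1ra* is a plus-strand gene of chromosome 6 (124512621 to 124523440 in mm10). Its near-copy *C1rb* is listed from 124570430 to 124581044, with the complement gene *C1s1* between them. Of the 50-base windows of the longest annotated transcript of *C1ra*, 48.0% also occur in that of *C1rb*. How reads from shared windows were assigned was not stated, so the value of *C1ra* is uncertain, by an amount that this share does not measure. *C1rb* itself was listed at no more than 2.85 FPKM in any library.

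*C4b* encodes complement C4, whose larger fragment binds covalently to surfaces. Its FPKM was 8.003, 25.6 and 24.2 in LTBP4-CKO libraries 1 to 3 and 114, 49.5 and 123 in WT libraries 1 to 3. LTBP4-CKO library 1 was the lowest, and no library of one genotype reached the other. The mean was 16.5 ± 12.0 FPKM in LTBP4-CKO samples and 84.1 ± 48.9 FPKM in WT samples (SD, n = 2 each), a log2 fold change of −2.35 (SE 0.64, 95% interval −3.89 to −0.80). Of the windows of *C4b*, 35.2% also occur in its neighbour *C4a*, which was listed at no more than 0.740 FPKM. *C4b* is a minus-strand gene of chromosome 17 (34728381 to 34743897 in mm10).

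*C2* encodes the serine protease that joins C4b in the classical convertase. It was at 0.489, 1.43 and 1.52 FPKM in LTBP4-CKO libraries 1 to 3 and at 5.68, 2.99 and 5.15 FPKM in WT libraries 1 to 3, from about 16.0 to 24.0 and 26.0 to 75.0 fragments. All LTBP4-CKO libraries lay below all WT libraries, with library 1 again the lowest. The log2 estimate was −1.40 (SE 0.48, 95% interval −2.55 to −0.25), and it was −2.10 with a pseudocount of 0.1, since low values are compressed on this scale. *C2* is a minus-strand gene of chromosome 17 (34862602 to 34882100 in mm10). Strand was not stated to be kept, and the *C2* gene overlaps *Zbtb12* on the opposite strand, which was listed between 2.78 and 4.35 FPKM.

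The alternative pathway member *Cfb*, which encodes factor B, the paralogue of C2 in this route, was at 2.49, 7.45 and 7.998 FPKM in LTBP4-CKO libraries 1 to 3 and at 20.1, 10.2 and 17.6 FPKM in WT libraries 1 to 3. The groups did not overlap, and LTBP4-CKO library 1 was the lowest. The log2 estimate was −1.44 (SE 0.55, 95% interval −2.75 to −0.13), and it was −0.78 without LTBP4-CKO library 1. *Cfb* lies directly downstream of *C2* on the same strand (mm10 chromosome 17, 34856374 to 34862514), with 87 bases between the listed ends, and a further annotated gene, *Gm20547*, spans both, and how reads there were assigned was not stated.

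The terminal pathway members take part in the membrane pore. *C7* was at 2.02, 2.57 and 1.78 FPKM in LTBP4-CKO libraries 1 to 3 and at 9.73, 5.48 and 13.4 FPKM in WT libraries 1 to 3. The LTBP4-CKO libraries were close together and all below the WT libraries, with a log2 fold change of −1.54 (SE 0.45, 95% interval −2.63 to −0.46). *C6* was at 0.169, 0.922 and 0.292 FPKM in LTBP4-CKO libraries and at 1.96, 0.319 and 1.47 FPKM in WT libraries, from about 6.1, 14.2 and 5.1 fragments and 28.4, 3.0 and 22.3 fragments. Its genotypes overlapped, and it reached 1 FPKM in fewer than the 3 libraries needed for a test. Both genes lie on chromosome 15 (mm10), *C6* on the plus strand from 4727210 to 4804045 and *C7* on the minus strand from 4988762 to 5063773.

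*Serping1* encodes C1 inhibitor, the plasma serpin that inactivates C1r and C1s, and it had the highest FPKM of the 9 in every library. It was at 238, 106 and 114 FPKM in LTBP4-CKO libraries 1 to 3 and at 494, 203 and 489 FPKM in WT libraries 1 to 3. The genotypes overlapped, since LTBP4-CKO library 1 lay above WT library 2. The log2 estimate was −0.96 (SE 0.65, 95% interval −2.51 to 0.59), the widest interval of the 8. *Serping1* is a minus-strand gene of chromosome 2 (84765360 to 84775429 in mm10).

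By level, the order in WT samples was *Serping1* (347 ± 204 FPKM), *C3* (97.0 ± 45.0), *C4b* (84.1 ± 48.9), *C1ra* (30.2 ± 16.8), *Cfb* (14.6 ± 6.10), *C7* (8.53 ± 4.30), *C3ar1* (5.77 ± 2.31), *C2* (4.20 ± 1.71) and *C6* (1.02 ± 0.987; SD, n = 2). Neighbours in this order differed by less than the larger of their SDs, except *Serping1* and *C3*, *C4b* and *C1ra*, and *C2* and *C6*. In LTBP4-CKO library 1 *C1ra* stood above *C4b* and *C3ar1* above *Cfb*, whereas in LTBP4-CKO libraries 2 and 3 the order from *Serping1* to *C7* was that of WT library 1. The summed FPKM of the 9 genes was 309, 186 and 194 in LTBP4-CKO libraries 1 to 3 and 829, 359 and 824 in WT libraries 1 to 3. *Serping1* made up 77.0%, 56.9% and 58.9% of that sum in LTBP4-CKO libraries and 59.6%, 56.5% and 59.4% in WT libraries, so LTBP4-CKO library 1 differed from the other 5 in the makeup of its complement transcripts.

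**Figure D2:**
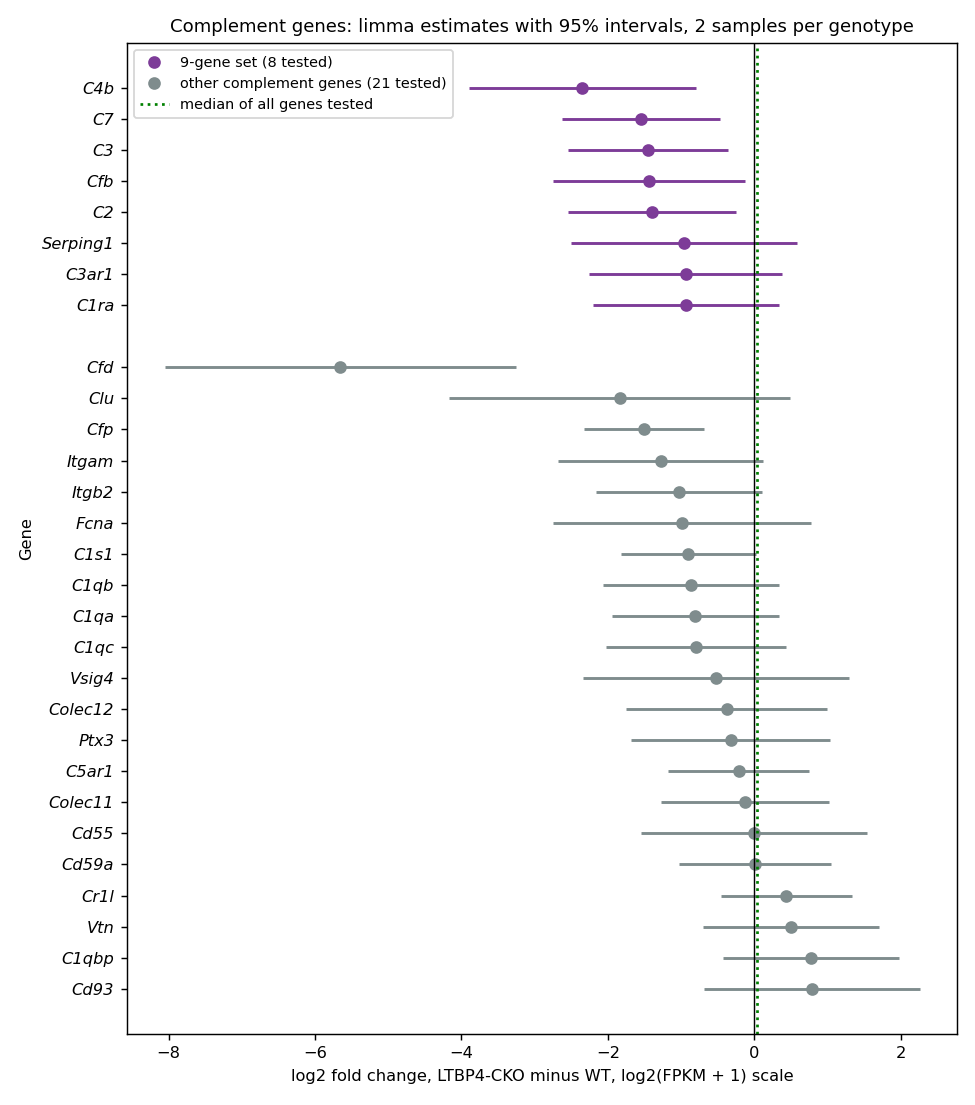
Log2 fold changes (LTBP4-CKO minus WT, on log2(FPKM + 1)) of the 8 tested members and of 21 other tested complement genes, with points for limma estimates, bars for 95% intervals over 2 samples per genotype, and a dotted line at the median of all genes tested. All 8 members lie left of 0, from −2.35 to −0.93, and the other genes run from −5.66 for *Cfd* to 0.79 for *Cd93*.

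Within the LTBP4-CKO group the members parted by library. *C4b*, *Cfb* and *C2*, whose listed outer ends span 154 kb of chromosome 17, were in LTBP4-CKO library 1 at 0.321, 0.322 and 0.332 times the mean of libraries 2 and 3. *C7* and *C3* were at 0.928 and 1.05 times, and *C1ra*, *Serping1* and *C3ar1* at 2.01, 2.16 and 3.55 times. Among WT libraries there was no such parting, since library 2 was at 0.412 to 0.559 times the mean of libraries 1 and 3 for all 8. *C3* also lies on chromosome 17, 22.3 Mb from the other 3, and did not share their level in LTBP4-CKO library 1.

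Ratios between members within a library do not depend on how libraries are scaled. Over the 28 ratios of the 8 tested members, that of *Serping1* to *C1ra*, the inhibitor to its target protease, varied least. It was 12.0, 11.7 and 10.6 in LTBP4-CKO libraries 1 to 3 and 11.4, 11.1 and 12.0 in WT libraries 1 to 3, a spread of 1.08 times between the highest and the lowest sample. The ratio of *Cfb* to *C2* was 5.09, 5.22 and 5.27 in LTBP4-CKO libraries and 3.54, 3.43 and 3.43 in WT libraries. It was level within each genotype and higher in every LTBP4-CKO library, but *C2* rested on about 16.0 to 24.0 fragments in LTBP4-CKO libraries and 26.0 in WT library 2. The ratio of *C4b* to *Cfb* also did not overlap, at 3.22, 3.44 and 3.02 in LTBP4-CKO libraries and 5.70, 4.83 and 6.96 in WT libraries. The ratio of *C4b* to *C3ar1* varied most, at 1.86, 25.4 and 17.1 in LTBP4-CKO libraries and 15.5, 12.0 and 16.6 in WT libraries, and only LTBP4-CKO library 1 fell outside the range of the rest by more than 2 times. These ratios were picked from the 28 after their values were seen and were not tested.

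**Figure D3:**
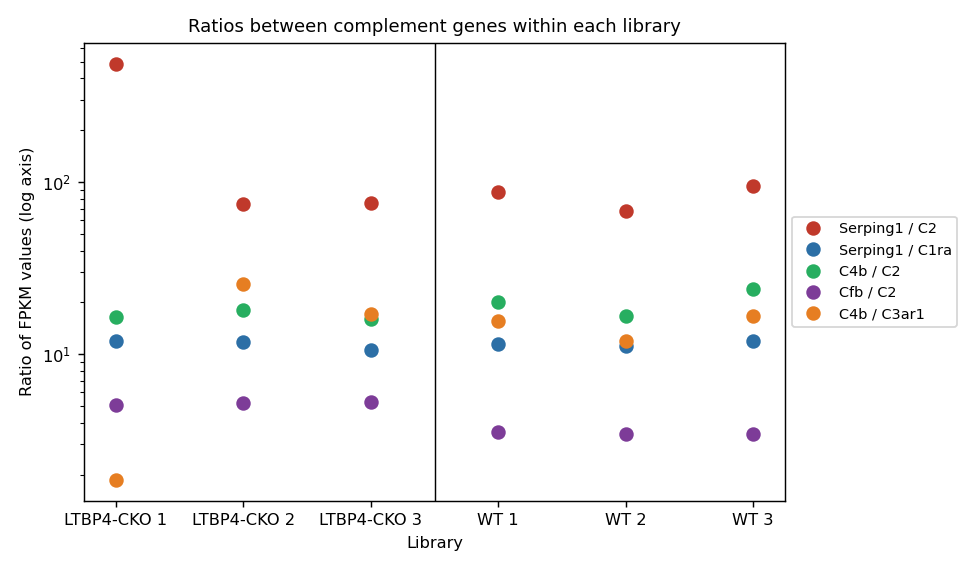
Ratios of FPKM between complement genes in each library (log axis), LTBP4-CKO libraries left and WT libraries right of the line. *Serping1* over *C1ra* stays between 10.6 and 12.0, *Cfb* over *C2* is at 5.09 or above in LTBP4-CKO and at 3.54 or below in WT, and *Serping1* over *C2* is 488 in LTBP4-CKO library 1 against 67.8 to 95 in the other libraries.

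The remaining complement genes form a list of 53 symbols, of which 51 were listed and 21 could be tested, while 9 were at 0 in every library. In LTBP4-CKO hearts 16 of the 21 had lower estimates (median −0.52 on the log2 scale), beside 45.8% of all genes, and 0 passed (limma, Benjamini-Hochberg adjusted p = 0.999 for each), with 2 lower at an unadjusted p under 0.05, beside 2.29% of all genes. By library, 8 were lower and 2 higher without overlap, beside 11.5% lower and 10.4% higher over all genes.

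The classical recognition genes *C1qa*, *C1qb* and *C1qc*, which encode the chains of C1q made by macrophages, were lower in every LTBP4-CKO library. *C1qa* was at 133, 138 and 142 FPKM in LTBP4-CKO libraries 1 to 3 and at 298, 187 and 313 FPKM in WT libraries 1 to 3 (log2 fold change −0.80, SE 0.48). *C1qb* was at 120, 118 and 118 FPKM in LTBP4-CKO libraries and at 293, 157 and 315 FPKM in WT libraries (−0.87, SE 0.50), and *C1qc*, at 117, 86.9 and 97.2 FPKM in LTBP4-CKO libraries and at 259, 127 and 259.8 FPKM in WT libraries, had an estimate of −0.80. *C1qa* and *C1qb* were nearly level across the LTBP4-CKO libraries, and *C1qc* was highest in library 1, at 1.27 times the mean of libraries 2 and 3. The other tested recognition genes, *Fcna* (−0.99), *Colec12* (−0.38), *Ptx3* (−0.32) and *Colec11* (−0.13), overlapped between genotypes. Their signs turned in at least 1 alternative each.

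Of the proteases, *C1s1*, which encodes the partner of C1r, was at 41.9, 33.7 and 34.7 FPKM in LTBP4-CKO libraries and at 80.4, 63.6 and 80.6 FPKM in WT libraries (log2 fold change −0.90, SE 0.39). *Cfd*, which encodes factor D, the adipocyte protease that cleaves factor B, was at 0.921, 15.3 and 13.98 FPKM in LTBP4-CKO libraries and at 483, 162 and 451 FPKM in WT libraries. Neither gene overlapped between genotypes. The *Cfd* estimate of −5.66 (SE 1.00, 95% interval −8.05 to −3.26) was the lowest of all 12485 genes and did not pass, whereas without LTBP4-CKO libraries 2 and 3 it was −7.17 (limma, Benjamini-Hochberg adjusted p = 0.037, with adjusted p up to 1 over the other settings). That value sets LTBP4-CKO library 1 alone, a library that stood apart from its group, against 2 WT samples, so its spread comes from WT and library 1 is assumed to vary like them. The table lists *Cfd* over 672 kb of chromosome 10, against 1.80 kb for the annotated gene, so its value may hold reads of other genes. *Cfp*, which encodes properdin, the stabiliser of the alternative convertase, was at 16.0, 15.5 and 16.9 FPKM in LTBP4-CKO libraries and at 41.4, 49.3 and 49.99 FPKM in WT libraries. Its samples were level within each genotype, and the estimate was −1.50 (SE 0.34, 95% interval −2.32 to −0.68).

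Fluid-phase and membrane regulators did not share 1 direction, with 2 of 5 lower. *Clu*, encoding the terminal pathway inhibitor clusterin, was at 423, 130 and 132 FPKM in LTBP4-CKO libraries and at 2063, 347 and 2037 FPKM in WT libraries (log2 fold change −1.84, SE 0.97). The genotypes overlapped, and *Clu* in LTBP4-CKO library 1 was at 3.23 times the mean of libraries 2 and 3. *Cd59a*, encoding a membrane inhibitor of pore assembly, was at 54.9, 35.4 and 35.4 FPKM in LTBP4-CKO libraries and at 34.2, 54.7 and 35.6 FPKM in WT libraries. The cell surface regulators had estimates of −0.00 for *Cd55*, 0.01 for *Cd59a* and 0.44 for *Cr1l*, and that of *Cd59a* was −0.12 with FPKM totals made equal and −0.009 with median-of-ratios scaling. *Cr1l* was higher in every LTBP4-CKO library. The terminal pathway inhibitor vitronectin (*Vtn*) had an estimate of 0.50.

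Among receptors, the integrin genes *Itgam* (−1.28, SE 0.58) and *Itgb2* (−1.03, SE 0.48), which encode complement receptor 3, were lower in every LTBP4-CKO library. *Cd93*, encoding an endothelial surface protein once described as a C1q receptor, was at 55.0, 177 and 184 FPKM in LTBP4-CKO libraries and at 65.0, 50.4 and 66.1 FPKM in WT libraries (0.79, SE 0.61). *C1qbp*, encoding a mitochondrial protein that can bind C1q, was at 129, 56.8 and 57.4 FPKM in LTBP4-CKO libraries and at 55.2, 46.2 and 52.2 FPKM in WT libraries (0.78, SE 0.50). *Cd93* overlapped, with an estimate of −0.0627 without LTBP4-CKO libraries 2 and 3, and *C1qbp* did not. *Vsig4* (−0.52) and *C5ar1* (−0.21), which encode a macrophage receptor for C3 fragments and the C5a receptor, overlapped.

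Markers of several cell types varied across the libraries alongside these values, and their part in the result was not tested. Fibroblast markers had lower estimates in 8 of 8 tested genes (median log2 fold change −1.03), with a summed FPKM of 993 to 3557 in LTBP4-CKO libraries and 2346 to 5326 in WT libraries. In LTBP4-CKO library 1 they stood 0.27 above their mean over samples on the log2 scale, against −1.22 and −1.24 in libraries 2 and 3. *C1ra* (0.00, −1.06 and −0.82), *Serping1* (0.07, −1.09 and −0.98) and *C3ar1* (0.16, −1.24 and −0.97) were also highest in library 1 within their group. The same order was not particular to fibroblast markers. It held for macrophage (−0.19, −0.84 and −0.91), cardiomyocyte (1.47, −0.21 and −0.25) and atrial cardiomyocyte markers (−1.69, −1.96 and −2.33). Macrophage markers had lower estimates in 7 of 7 (median −1.11), with a summed FPKM of 196 to 351 in LTBP4-CKO libraries and 387 to 870 in WT libraries. Adipocyte markers had lower estimates in 4 of 5 (median −3.46), with a summed FPKM of 50.8 to 81.9 in LTBP4-CKO libraries and 108 to 127 in WT libraries, and *Lep* was at 0 in every library. They were lowest in LTBP4-CKO library 1 (−1.60, against −0.89 and −0.59), as were *C4b*, *Cfb* and *C2*. Library 1 was also the lowest for mural cell markers (−0.75, against 0.33 and 0.30) and mesothelial markers (−0.58, against 0.10 and −0.07).

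Mesothelial markers had lower estimates in 4 of 5 (median −0.92), with a summed FPKM of 15.2 to 32.3 in LTBP4-CKO libraries and 27.9 to 34.7 in WT libraries. *C2*, *Cfb*, *C4b* and *Serping1* are known as interferon-inducible genes. A list of interferon-response genes had lower estimates in 6 of 9 (median −0.24), with deviations of −0.46, 0.28 and 0.28 in LTBP4-CKO libraries 1 to 3. In WT libraries 1 to 3 the deviations were 0.00, 0.21 and −0.06, so LTBP4-CKO libraries 2 and 3 lay above every WT library, unlike the members. Hepatocyte markers were near absent, with no gene above 2.82 FPKM and *Serpina1a* and *Fgb* at 0 in every library. Cardiomyocyte markers had higher estimates in 6 of 6 (median 1.23) and were present in every library, as the heart label requires. Their summed FPKM was 54763, 17980 and 17734 in LTBP4-CKO libraries 1 to 3 and 5887, 21772 and 5929 in WT libraries 1 to 3. Of these 6 genes, 0 were higher in every LTBP4-CKO library than in every WT library, beside 10.4% of all genes tested. By the same rule 3 of 5 endothelial markers and 1 of 5 mesothelial markers were higher. Lower in every LTBP4-CKO library were 7 of 7 macrophage, 4 of 5 adipocyte, 3 of 5 mesothelial and 2 of 8 fibroblast markers, beside 11.5% of all genes. So were 1 of 4 atrial markers and 1 of 9 interferon-response genes. Atrial cardiomyocyte markers had lower estimates in 4 of 4 (median −4.12), the lowest median of the lists. Endothelial markers had lower estimates in 0 of 5 (median 0.59), mural cell markers in 4 of 5 (−0.50), neutrophil markers in 0 of 2 (1.01) and the 1 tested lymphocyte marker was at −0.53. None of the genes of these lists passed (limma, Benjamini-Hochberg).

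**Figure D4:**
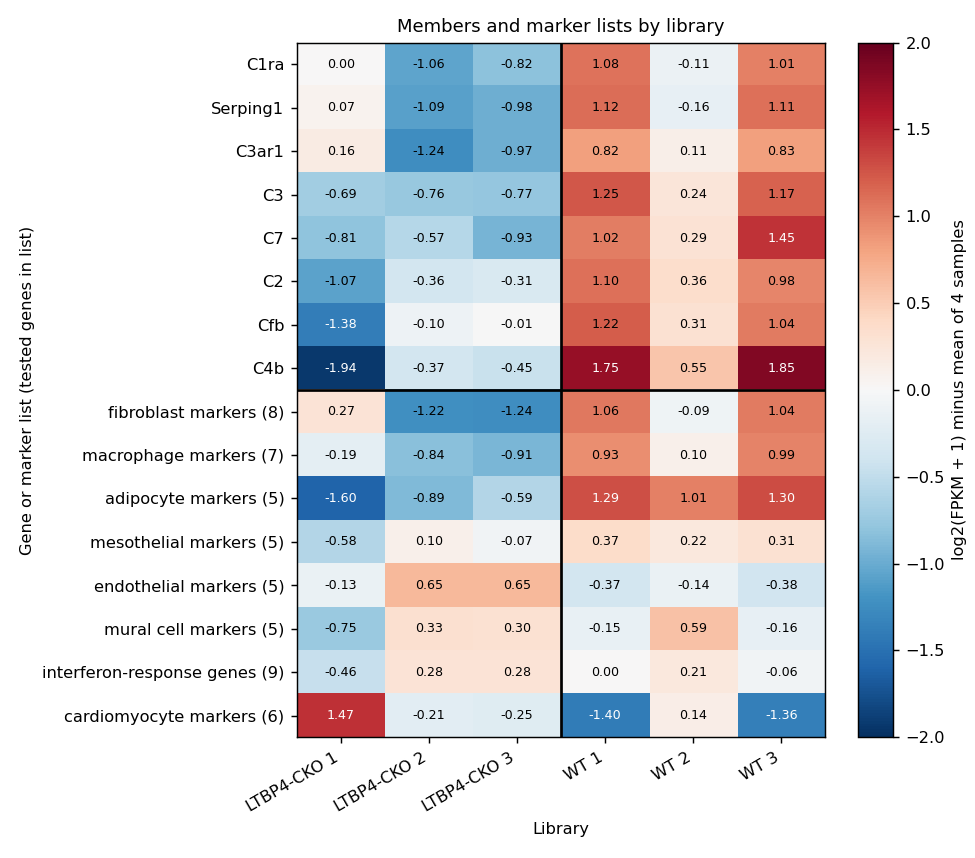
Deviation of log2(FPKM + 1) from the mean of the 4 samples, for the 8 tested members and for marker lists averaged over their tested genes, with LTBP4-CKO libraries left and WT libraries right of the line. *C1ra*, *Serping1* and *C3ar1* stand between 0.00 and 0.16 in LTBP4-CKO library 1, whereas *C4b* is at −1.94 and adipocyte markers at −1.60 there.

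With libraries left out as given below, all 8 tested members still had lower estimates in LTBP4-CKO hearts. Without WT libraries 1 and 3, which had the highest summed atrial markers, the median over the 8 members was −0.998. *C1ra*, *Serping1*, *C3ar1* and *C3* then had estimates of −0.35, −0.32, −0.58 and −0.97. LTBP4-CKO library 1 stayed in that comparison, with an atrial sum of 13894 FPKM against 1537 in WT library 2. Their log2 averages of the tested atrial markers were −1.69 and −1.64. Without LTBP4-CKO library 1 the median was −1.50, and *C4b* had an estimate of −1.59, *C3* of −1.49, *C3ar1* of −1.57, *Serping1* of −1.51 and *C1ra* of −1.40. With LTBP4-CKO library 1 alone, without libraries 2 and 3, *C3ar1*, *Serping1* and *C1ra* had estimates of −0.31, −0.40 and −0.46, against −3.11 for *C4b* and −2.10 for *Cfb*. Leaving out all of these set WT library 2 against LTBP4-CKO libraries 2 and 3, a comparison of 1 sample with 1 that allows no test. The median was then −0.92, with values from −1.22 for *C3ar1* to −0.37 for *Cfb*. Within the first record set (the samples with the earlier record numbers, 2 libraries per genotype) the estimates ran from −2.30 for *C4b* to −0.99 for *Serping1*. In the second set, 1 library per genotype and both counted as repeats of libraries of the first, they ran from −2.37 for *C7* to −1.05 for *Cfb*.

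By root mean square difference of centred log2(FPKM + 1) values over the 4 samples, the tested genes nearest to *C3* were *Srpx* (0.022), *Mmp23* (0.049) and *Plekha4* (0.063), and the nearest member was *C7* (0.069). Those nearest to *C3ar1* were *Lpar6* (0.082), *Apbb1ip* (0.088) and *Lrp1* (0.097), and the nearest member was *C1ra* (0.196). These distances describe 4 samples and were not tested.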

How the data were processed

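Per the labels' protocols, Trizol was used for heart RNA and the TruSeq RNA kit for the libraries. The authors deposited FPKM values, 1 column per library, per the file headers, made with Cufflinks on build mm10, per the submitters' processing notes. Version, aligner and annotation are not stated. The members and lists were chosen with earlier results of these data known.

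The table listed 23995 genes, and 1 line held no value. Depth was recovered by finding the scale at which FPKM times effective length is whole. For 804 genes with 1 annotated transcript over 1000 bases and matching ends (GENCODE M21), 100% of values under 50 fragments fell within 0.15 of a whole number. Fragments per gene use the longest transcript and are approximate.

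Close library pairs (variance under 3 times counting in every depth bin) were averaged. The 12485 genes that reached 1 FPKM in 3 or more libraries were tested on log2(FPKM + 1) with limma 3.58.1 in R 4.3.3 (eBayes with trend and robust), two-sided, with Benjamini-Hochberg adjustment at 0.05 and 2 residual degrees of freedom. No count model was applied to the FPKM. Such p-values measure only the spread between these samples, which may be technical. Permutation tests used scipy 1.17.1. The script was tested on simulated data. All 9 members are named in full. Of the other complement genes, each tested one is given by its estimate, and the 2 highest in each role and *Cfd* by library. 1 other complement gene is not reported here and was left out of that list's counts.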

Additional observations from a re-analysis of the deposited data

How the results depend on the processing

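Over 18 alternatives the median of the tested members stayed between −1.80 and −0.92, all members had negative estimates in each, and 0 passed in each that allows a test (limma, Benjamini-Hochberg). Leaving out libraries gave −1.80 (without WT 2) to −0.998 (without WT 1 and 3), and WT 2 against LTBP4-CKO 2 and 3 alone, an alternative chosen after seeing the data, gave −0.92. The count of members at an unadjusted p under 0.05 (limma) was 5, all lower, beside 2.29% of all genes. It was 8 with 6 libraries taken as separate samples, which counts the libraries of a close pair as independent, and 4 with no filter. The share over all genes was not computed for those settings, so their counts cannot be set beside one. Without WT 1 and 3, a fit that leaves WT 2 alone in its arm, the count of members was lower than in any other setting with a test. The count therefore leaned on WT 1 and 3, which were counted as 1 sample. Over all genes, 1 passed, against 2 with 6 separate libraries, 9 with no filter on low values, and 1 to 12 with libraries left out. The median of the other complement genes ran from −1.08 (without WT 2) to −0.13 with libraries left out (−0.39 without WT 3), and was −0.0892 with no filter. Of these genes, 1 (*Cfd*, −7.17) was past the threshold without LTBP4-CKO 2 and 3, a fit with LTBP4-CKO 1 alone in its arm, whose spread is assumed to be like that of WT. Correlations of library deviations between genotypes were 0.116, 0.125 and −0.0977 for the same replicate numbers, and from −0.127 to 0.113 for different numbers. With 2 distinct samples per genotype they cannot tell whether the numbers pair the samples. With the replicate block 1 gene and 0 members passed (limma, Benjamini-Hochberg), the members' median being −1.37.

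Without WT 2, *Ptx3* (−0.95), *Cd55* (−0.87) and *Vtn* (0.77) kept their signs. Signs turned in the following cases, and the cause was not tested. *Cd55* was 0.041 in the first record set, 0.0091 with a pseudocount of 0.1, 0.0412 without WT 3, 0.86 without WT 1 and 3, 0.50 without LTBP4-CKO 2 and 3 and 0.36 in the added alternative. *Cd59a* was −0.009 with median-of-ratios scaling, −0.12 with equal FPKM totals (which shifts the median of all genes by −0.12), −0.30 without LTBP4-CKO 1, −0.0019 without WT 1, −0.30 without WT 1 and 3 and −0.61 in the added alternative. Without LTBP4-CKO 1, *Ptx3* was 0.061 and *Vtn* −0.11. Without WT 1 and 3, *Fcna* was 0.19, *Colec12* 0.33, *Ptx3* 0.30, *C5ar1* 0.12 and *Vsig4* 0.66. Without LTBP4-CKO 2 and 3, *Colec11* was 0.48, *Colec12* 0.0806 and *Cd93* −0.0627. In the added alternative, *Fcna* was 0.0821, *Ptx3* 0.69, *Vtn* −0.38, *C5ar1* 0.0943 and *Vsig4* 0.50. Members with under 30 fragments in a library (*C2*, *C6*, *C7*, *C3ar1*) are limited by depth.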
